A study of Mus musculus with 6 samples.

Results

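The gamma-chain cytokine receptors were examined in splenic B cells that had been activated through TLR9. The set holds 8 genes, chosen by symbol from the 23420 genes in the data, namely Il2ra, Il2rb, Il2rg, Il4ra, Il7r, Il9r, Il15ra and Il21r. All 8 had at least 10 reads' worth of signal in at least 3 samples and were among the 11233 genes tested. B cells were purified with beads from the spleens of WT BALB/c mice and cultured for 4 hours, either with the TLR9 agonist CpG ODN 1826 at 10 μg/mL or without a stimulus. There were 3 CpG-stimulated and 3 unstimulated samples. The cells came from 3 mice aged 7 to 11 weeks, were cultured at a density of 10 M per mL, and bear the label female in replicates 1 and 2 and male in replicate 3 of both groups. No B cell subset is named in the labels. Whether a sample is 1 mouse or a pool is not given in the sources used here, so p values measure the spread between these samples.

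The receptors of this family share the common gamma chain, encoded by Il2rg, and each cytokine is recognized through a private chain that pairs with it. The IL-2 and IL-15 receptors also share a beta chain, Il2rb, and add alpha chains, Il2ra (CD25) and Il15ra. CD25 binds IL-2 weakly alone and completes the high-affinity receptor together with the beta and gamma chains, whereas the IL-15 alpha chain binds its cytokine tightly by itself. JAK1 and JAK3 are attached to these chains, and they phosphorylate STAT proteins that carry the signal to the nucleus. In B cells IL-4 and IL-21 steer class switching and differentiation, IL-7 drives the growth of progenitors in the bone marrow, and CD25 is a well-known sign of activation.

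CpG split the family. Il2ra and Il15ra, the alpha chains for IL-2 and IL-15, rose 11.1-fold and 7.68-fold, and Il21r rose 1.34-fold. Il9r fell to 40.5% of its unstimulated level and Il4ra to 82.0%. Il2rg, Il7r and Il2rb did not pass the test at an FDR of 0.05. In all, 3 of 8 receptors were higher and 2 of 8 were lower with CpG, whereas 37.6% of all tested genes were higher and 36.7% were lower, so counts of this size do not set the receptors apart. At a log2FC over 1, 2 of 8 receptors rose, and 15.8% of all tested genes did. At a log2FC under -1, 1 of 8 fell, and 15.3% of all tested genes did. The groups did not overlap in 4 of the 8 receptors, a share below the 77.7% found over all tested genes. The median log2FC of the 8 receptors was 0.01, and that of all tested genes was 0.00.

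Values are log2 CPM as deposited. The most frequent value, -5.15, was taken as that of a gene without reads, and 10 reads then correspond to -0.76. These levels come from a common library of 17.8 M reads, because quantile normalization has removed differences in depth, and they cover counting error only. Some genes near -5.15 shift by replicate number, such as Nkg7 at -5.27, -5.415 and -4.771 in replicates 1 to 3 of both groups. Values given in reads are therefore approximate. All 7 B cell markers examined were expressed, with summed levels of 2410 to 2770 CPM in CpG-stimulated and 3630 to 4240 CPM in unstimulated samples. Of these markers, 2 were higher and 4 were lower with CpG. Of 7 T cell and 4 NK cell markers, 0 reached 10 reads in 3 samples. Of 4 markers of plasmacytoid dendritic cells, Siglech and Clec10a were under 3 reads on average, and Ccr9 and Pacsin1 were lower with CpG. These 4 summed to 24.4 to 26.0 CPM with CpG and 38.0 to 41.7 CPM without. Most of this sum came from Pacsin1, with means of 4.60 with CpG and 5.27 without, while those of Ccr9 were -0.16 and 0.78. Hemoglobin and other erythroid genes summed to 384 to 4910 CPM and were highest in replicate 2 of both groups.

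Of the 8 genes, 4 lie side by side in pairs on the mm10 (GRCm38) genome, and promoter sequences of 7 of the 8, all but Il2rb, were matched in the RefSeq table used here. Il2ra (chr2:11642807-11693193) and Il15ra (chr2:11705290-11734317) are both on the plus strand with 12.1 kb between them. Il4ra (chr7:125552120-125579474) and Il21r (chr7:125603429-125633570) are also both on the plus strand, 24.0 kb apart. On the minus strand are Il9r (chr11:32187541-32200279), Il7r (chr15:9505788-9530176), Il2rb (chr15:78479256-78495271) and Il2rg (chrX:101264378-101268255). The 250 bases before the RefSeq start of Il2ra (chr2:11642542-11642791, plus strand, GRCm38.p6) are shown because this gene changed most. Capitals mark a run of overlapping matches to the NF-κB consensus, the first of which begins 201 bases before the start.
Il2ra upstream: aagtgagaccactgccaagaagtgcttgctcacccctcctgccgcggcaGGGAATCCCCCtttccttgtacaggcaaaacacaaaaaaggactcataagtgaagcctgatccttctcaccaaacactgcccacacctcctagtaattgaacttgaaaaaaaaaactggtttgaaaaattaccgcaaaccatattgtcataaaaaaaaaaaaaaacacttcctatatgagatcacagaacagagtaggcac

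Windows of 250 bases before to 50 after each RefSeq start were searched on both strands for 4 short motifs. The NF-κB consensus was found in 4.51% of the 32851 windows of all genes. Among the 8 receptor windows, of 7 genes, since Il15ra has a pair and Il2rb none, 2 held it, those of Il2ra and Il4ra. The Il4ra match lies 21 bases into the RefSeq transcript, which starts downstream of the start of the Il4ra span given above. The AP-1-like motif TGANTCA was found in 7.81% of all windows and in 1 receptor window, 30 bases before the second start of Il15ra and within an intron of transcripts from the first. A STAT-like motif, TTCNNNGAA, was in 8.3% of all windows and in that of Il7r. It lies 142 bases before the RefSeq start, yet within the Il7r span given above, which begins further upstream. An ISRE-like motif, in 3.44% of all windows, was in 0 receptor windows. These matches are letters in a window and do not show that a factor binds. The 3 sites other than that of Il2ra are given 5′ to 3′ along the gene, with the match in capitals, at chr7:125552283-125552310 (plus strand), chr2:11705674-11705701 (plus strand) and chr15:9529999-9530026 (minus strand).
Il4ra NF-κB match: ttctcgcaGGAAAGCCCCgcgcggcgcg
Il15ra AP-1-like match: ggggatgcTGAGTCAcagatctgtcacc
Il7r STAT-like match: tcaggagcTTCAGGGAAtaccaagatgc

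Il2rg encodes the chain common to all of these receptors. Its values were 8.66, 8.91 and 8.67 in the CpG-stimulated samples and 8.84, 8.84 and 8.75 in the unstimulated samples. The groups overlapped, with CpG replicate 2 above all unstimulated samples. The log2FC was -0.07 (SE 0.08, 95% confidence interval -0.241 to 0.105), and the limma FDR was 0.445. The interval leaves room for a modest decrease or a small increase. Without CpG replicate 2, the log2FC was -0.15 with a limma FDR of 0.0325. In the annotation another protein-coding model, Gm20489, shares 728 exon bases with Il2rg on the same strand and is not among the genes measured here, so reads of both could not be separated.

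Il2ra showed the largest change of the family. Its values were 9.33, 8.83 and 8.97 with CpG and 5.79, 5.35 and 5.58 without, and the lowest stimulated sample was far above the highest unstimulated one. The log2FC was 3.47 (SE 0.14, 95% confidence interval 3.17 to 3.78) and the limma FDR was 2.9e-08. Only 0.961% of the tested genes had a larger absolute log2FC, and Il2ra ranked 70 from the top among increased genes. In reads' worth, the gene went from 723 to 980 in unstimulated samples to 8110 to 11400 in stimulated ones, so counting error was small. The differences within pairs of the same replicate number were 3.54, 3.49 and 3.39, with little spread among them.

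Il15ra, the alpha chain that binds IL-15 and presents it to neighboring cells, behaved similarly at a lower level. The values were 4.14, 3.75 and 3.60 with CpG and 1.12, 0.76 and 0.78 without. All 3 stimulated samples were well above all 3 unstimulated ones. The log2FC was 2.94 (SE 0.18, 95% confidence interval 2.53 to 3.35) and the limma FDR was 2.95e-07, with differences of 3.02, 2.99 and 2.81 within pairs. Unstimulated samples held 29.6 to 38.1 reads' worth and stimulated samples 215 to 313, so the unstimulated level is less precise than that of Il2ra.

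Il2rb, the beta chain that IL-2 and IL-15 receptors share, did not follow the alpha chains. The values were 0.01, 0.18 and -0.45 with CpG and 0.08, 1.28 and 0.82 without. The groups overlapped, because unstimulated replicate 1 was as low as the stimulated samples and below 1 of them. The log2FC was -0.81 (SE 0.35, 95% confidence interval -1.59 to -0.0283), with a limma FDR of 0.0579. With replicate number as a block the limma FDR was 0.043, and without unstimulated replicate 1 the log2FC was -1.13 (limma FDR 0.0131). It was also called lower without CpG replicate 2 (-0.94, limma FDR 0.0479), with 10 reads required in all 6 samples (limma FDR 0.0489) and on the log2(CPM + 1) scale (-0.46, limma FDR 0.0499). The samples held 12.5 to 42.8 reads' worth of Il2rb, and the unstimulated samples alone 18.3 to 42.8. The SD in log2 CPM was 0.605 without CpG and 0.326 with CpG. Low depth and this spread between samples both limit the comparison, and their parts were not tested. NK cells express Il2rb, and the 4 NK cell markers summed to 0.683 to 1.4 CPM with CpG and 0.206 to 0.304 CPM without. This difference came mostly from Klrb1c, with means of -0.13 and -4.65, while those of Klrd1 were -4.62 and -2.76 and those of Nkg7 were -5.15 in both groups. Their part in the Il2rb values was not tested.

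The balance of IL-2 receptor chains within each sample changed accordingly. On the log2 CPM scale Il2ra exceeded Il2rb by 9.32, 8.65 and 9.41 with CpG and by 5.70, 4.06 and 4.76 without, a change of 4.29. Il2ra exceeded Il15ra by 5.19, 5.09 and 5.37 with CpG and by 4.67, 4.59 and 4.79 without, a change of 0.53. Neither difference overlapped between the groups. In the exact two-sided permutation test, all 4 differences between receptors tested in this way had p = 0.1 (adjusted p = 0.1). With 3 samples against 3 this test cannot give a lower p. Each change is the difference between the log2FC values of the receptors compared, so the test adds no independent support.

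**Figure D1:**
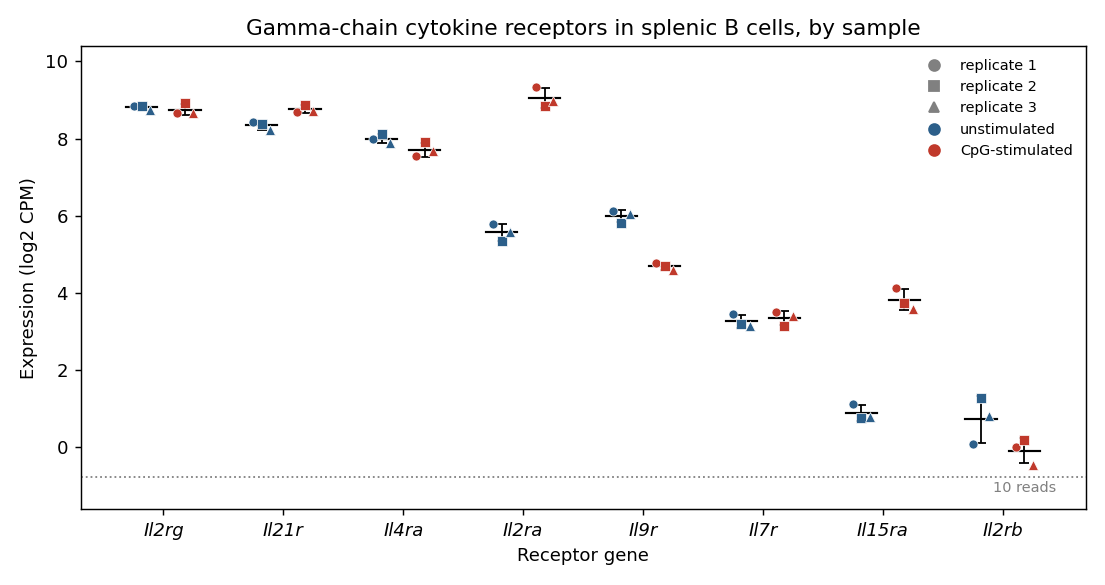
Expression of the 8 receptor genes in log2 CPM (vertical axis) in each of the 3 unstimulated (blue) and 3 CpG-stimulated (red) samples, with horizontal bars for the mean, error bars for the SD and marker shapes for the replicate number. Il2ra and Il15ra are far higher with CpG and Il9r is lower, while the groups overlap for Il2rg, Il4ra, Il7r and Il2rb. The dotted line marks the value of 10 reads, -0.76.

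Il21r encodes the receptor of IL-21, a cytokine of helper T cells that promotes plasma cell differentiation. The values were 8.68, 8.88 and 8.73 with CpG and 8.44, 8.37 and 8.21 without. The groups did not overlap, although the gap between them was narrow. The log2FC was 0.42 (SE 0.08, 95% confidence interval 0.248 to 0.596) with a limma FDR of 0.000661, an increase of 1.34-fold in an abundant transcript. The increase was smaller than 2-fold, and limma's treat against a log2FC of 1 gave an FDR of 1.

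Il4ra, the chain that binds IL-4 and, with Il13ra1, IL-13, was slightly lower. The values were 7.56, 7.91 and 7.67 with CpG and 7.99, 8.12 and 7.90 without. CpG replicate 2 was above unstimulated replicate 3, so the groups overlapped, but the stimulated sample was the lower one in each pair of the same number, by 0.43, 0.20 and 0.23. The log2FC was -0.29 (SE 0.09, 95% confidence interval -0.499 to -0.0746) with a limma FDR of 0.0192. The call was lost without CpG replicate 1 (log2FC -0.21, limma FDR 0.0696), without CpG replicate 3 (-0.27, limma FDR 0.0612) and without unstimulated replicate 2 (-0.23, limma FDR 0.0804). It was also lost in the female samples alone (limma FDR 0.0651), without a filter on low values (0.154) and without a variance trend (0.0629). With single samples left out, the number of receptors called lower ranged from 1 to 4, and the 4, without CpG replicate 2, included Il2rb and Il2rg. An antisense gene model, Gm44876, shares 571 exon bases with Il4ra on the opposite strand, and whether counting used strand is not given in the sources used here.

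The neighbors Il4ra and Il21r thus moved apart. Il21r exceeded Il4ra by 1.13, 0.97 and 1.05 with CpG and by 0.45, 0.26 and 0.32 without. The groups did not overlap in this difference, which grew by 0.71 (exact two-sided permutation p = 0.1, the smallest possible with 3 against 3).

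Il9r, which encodes the alpha chain for IL-9, was the receptor that fell most. The values were 4.79, 4.69 and 4.60 with CpG and 6.13, 5.82 and 6.03 without, with all stimulated samples more than 1 unit below the lowest unstimulated one. The log2FC was -1.30 (SE 0.09, 95% confidence interval -1.51 to -1.09) and the limma FDR was 8.01e-07, with differences of -1.34, -1.13 and -1.44 within pairs. Among tested genes, 20.6% had a larger absolute log2FC. Mast cells also carry this receptor. Of 4 mast cell markers, 1 (Kit) reached 10 reads in 3 samples, and the 4 summed to 0.845 to 1.4 CPM with CpG and 1.03 to 1.38 CPM without. In bulk samples fewer cells that express a gene and less RNA of it per cell cannot be told apart.

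Relative to each other, Il2ra and Il9r traded places. Il2ra was below Il9r in all 3 unstimulated samples, with differences of -0.35, -0.48 and -0.46, and above it by 4.54, 4.14 and 4.37 with CpG. The change of 4.78 was the widest of the 4 differences tested (exact two-sided permutation p = 0.1).

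Il7r, the IL-7 receptor alpha chain, is known mainly from B cell progenitors and T cells. It was detected in all 6 samples, at 3.50, 3.16 and 3.41 with CpG and 3.46, 3.21 and 3.14 without, or 156 to 201 reads' worth. The groups overlapped almost completely. The log2FC was 0.09 (SE 0.14, 95% confidence interval -0.214 to 0.391; limma FDR 0.57). Of the T cell markers, 6 of 7 were under 3 reads on average, and the 7 summed to 0.684 to 1.33 CPM with CpG and 0.807 to 1.29 CPM without. Of 5 progenitor markers, Rag2, Vpreb1, Igll1 and Dntt were under 3 reads on average over the samples. Without CpG, Rag2 was at -1.607, -2.119 and -1.145, above the value of 3 reads in each sample. With CpG, Rag2 was at -4.214, -2.665 and -2.867, below that value. Rag1 was the only one to reach 10 reads in 3 samples, at -1.41, -0.75 and -0.97 with CpG and 2.10, 2.49 and 2.76 without. Rag1 entered the test through its unstimulated samples, since 2 of its 3 stimulated values were below that of 10 reads. The part of progenitors in the Il7r values was not tested.

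Levels of different receptors can be compared per length. Per kilobase of exon, Il2rg was the most abundant in both groups, with 180 ± 18.4 CPM per kb (SD, n = 3) with CpG and 188 ± 6.5 (n = 3) without. Il21r followed, with 131 ± 9.58 and 97.7 ± 7.61 CPM per kb. Il2ra went from 8.38 ± 1.26 to 93.4 ± 17.2 CPM per kb. In the unstimulated samples this gene came after Il2rg, Il21r, Il4ra and Il9r, and with CpG it came after Il2rg and Il21r alone. The level of Il4ra was 42.7 ± 3.28 CPM per kb without and 35.1 ± 4.53 with CpG, and that of Il9r 13.0 ± 1.39 and 5.24 ± 0.35. The 3 receptors of lowest level with CpG were Il15ra at 3.24 ± 0.652, Il7r at 2.21 ± 0.267 and Il2rb at 0.224 ± 0.0478 CPM per kb. Without CpG these were at 0.419 ± 0.0605, 2.07 ± 0.247 and 0.409 ± 0.16, and Il15ra and Il2rb were the only neighbors in either order whose samples overlapped. The order depends on length for 1 gene. With the longest coding transcript in place of all exons, Il15ra was at 7.44 CPM per kb with CpG, above Il9r at 5.78, and at 0.962 without.

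Set against the common chain in the same sample, the ratio of Il2ra to Il2rg in CPM per kb was 0.669, 0.398 and 0.515 with CpG and 0.0503, 0.0371 and 0.0462 without. The ratio of Il21r to Il2rg was 0.706 to 0.747 with CpG and 0.493 to 0.542 without. Il9r moved the other way, from 0.0594 to 0.074 without to 0.026 to 0.0331 with CpG. In neither group did any private chain exceed Il2rg per length. These ratios concern transcripts and say nothing about protein on the cell surface.

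**Figure D2:**
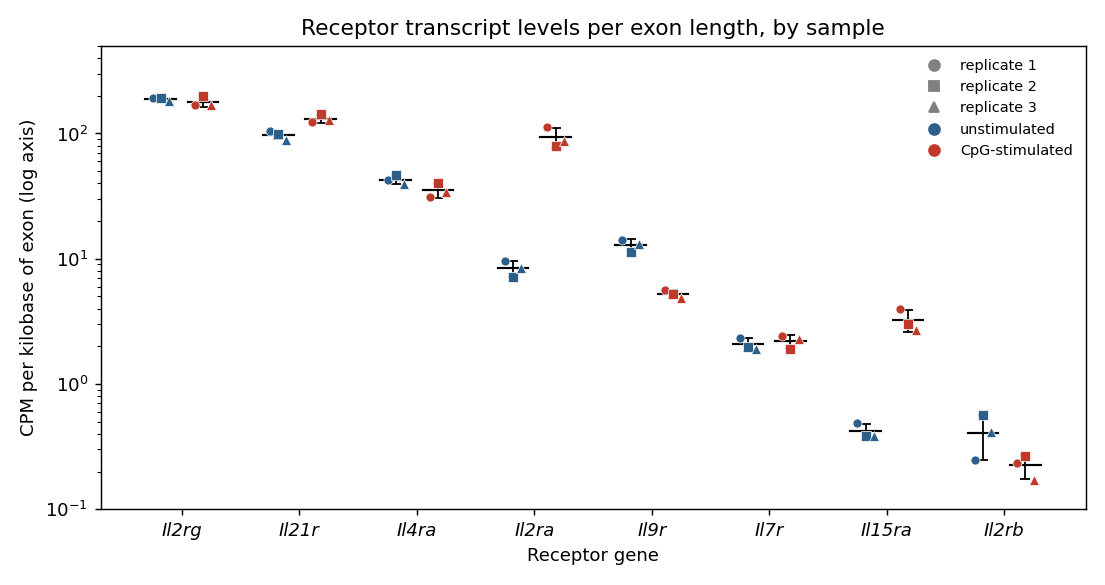
CPM per kilobase of exon (vertical log axis) of the 8 receptor genes in each of the 3 unstimulated (blue) and 3 CpG-stimulated (red) samples, with bars for the mean and error bars for the SD. Il2rg is at the top in both groups, and Il2ra moves from a mean of 8.38 to 93.4 CPM per kb, past Il4ra.

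The genes around the 2 receptor pairs did not all move with them. Protein-coding genes within 100 kb of either receptor were examined. Rbm17, a splicing factor gene that starts 38.7 kb before Il2ra on the other strand, went from 7.15, 7.08 and 7.06 to 8.57, 8.44 and 8.44 with CpG. All stimulated samples were higher, and the log2FC was 1.39 (SE 0.06, limma FDR 4.95e-08). Pfkfb3, a regulator of glycolysis, had a log2FC of 0.17 (SE 0.08, limma FDR 0.0678), and with replicate number as a block its limma FDR was 0.0313. Beyond Il15ra, Fbh1 (Fbxo18 in these data), a DNA helicase gene, fell by 0.59 (limma FDR 8.97e-05), and Ankrd16 had a log2FC of 0.00 (SE 0.13, limma FDR 0.995). The direction of Ankrd16 turned with the scale and the centring of samples. Il2ra and Il15ra thus rose between neighbors of which 1 rose, 1 fell and 2 did not pass the test. Over all tested genes 37.6% were higher and 36.7% lower, so such mixed calls do not set this locus apart.

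At the other locus, the gene before Il4ra, Nsmce1, a subunit of the SMC5/6 complex, fell from 5.03, 5.41 and 5.28 to 3.53, 4.28 and 3.66 with CpG. The groups did not overlap, and the log2FC was -1.41 (SE 0.18, limma FDR 5.13e-05). Gtf3c1, a subunit of the general factor TFIIIC, lies after Il21r and fell by 0.90 (SE 0.06, limma FDR 7.23e-07). Its neighbor D430042O09Rik fell by 0.30 (limma FDR 0.0364), a call that was lost without CpG replicate 1, CpG replicate 2, unstimulated replicate 1 or unstimulated replicate 3 (limma FDR 0.0631 to 0.154). Kdm8, a hydroxylase gene, had a log2FC of -0.36 (SE 0.16, limma FDR 0.065). Il21r was the only one of the 6 genes measured at this locus to rise, beside 37.6% higher and 36.7% lower over all tested genes. So few genes do not set the locus apart.

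**Figure D3:**
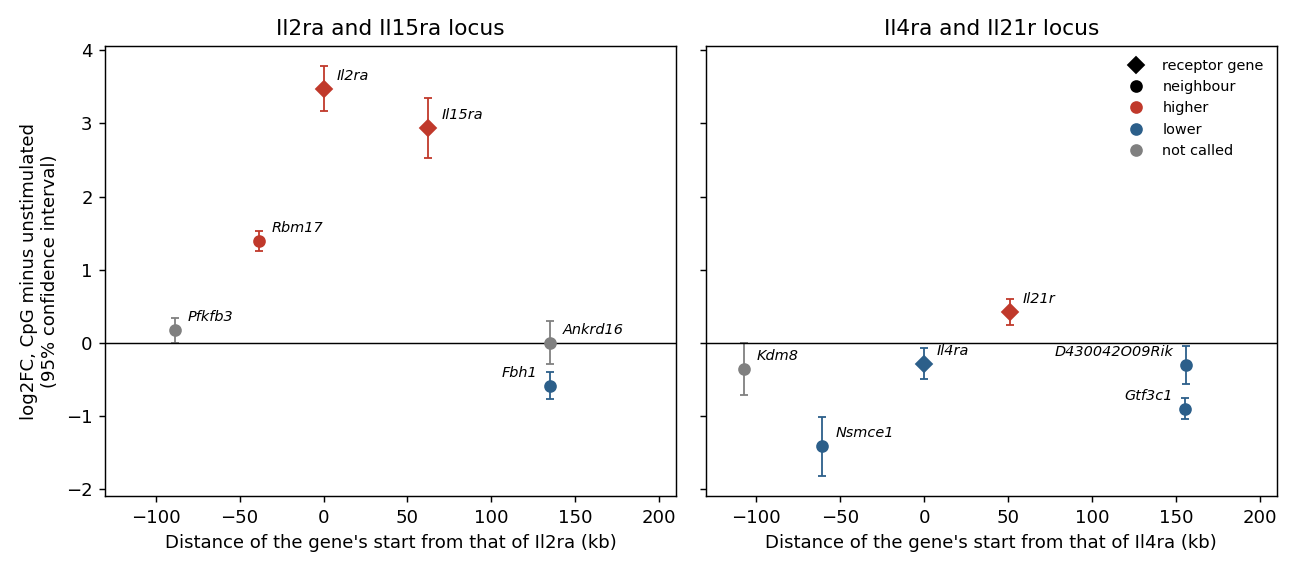
Log2FC of CpG-stimulated minus unstimulated samples with its 95% confidence interval (vertical axis) against the distance in kb between a gene's start and that of Il2ra (left) or Il4ra (right). Diamonds are receptor genes, circles are neighbors, and colors mark genes that were higher (red), lower (blue) or not called (grey). Il2ra and Il15ra stand above their neighbors, and Il21r is the only gene above 0 in the right panel.

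Of the 6 cytokines that bind these receptors, 1 was measured well enough to be tested. Il2 was at -0.23, -0.30 and -0.03 with CpG, or 13.9 to 16.9 reads' worth, and at -3.79, -3.86 and -4.73 without. All unstimulated samples were under the value of 3 reads. Against that value per sample, Il2 was at least 4.46-fold higher with CpG on the approximate conversion to reads, a ratio that was not tested. It was among the tested genes only through its stimulated samples, so its call is no independent support. In every sample Il7, Il9 and Il21 sat at the value of no reads. This does not show that their transcripts were absent from the cells. Il4 and Il15 were also under 3 reads on average.

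Of 4 genes listed as partner chains or their ligands, 2 were tested, and both were lower, beside 36.7% of all tested genes. Il13ra1, which joins Il4ra in the type II IL-4 receptor, was at -1.18, -0.78 and -0.55 with CpG and 1.58, 1.71 and 0.84 without. The groups did not overlap, and the log2FC was -2.22 (SE 0.32). It passed the filter through its unstimulated samples, with 2 of 3 stimulated values below that of 10 reads. The size of the difference is therefore uncertain, and the call is no independent support. Myeloid cells express Il13ra1, and of 6 myeloid markers Csf1r fell by 1.61 and Cd14 fell by 1.73, Adgre1 (Emr1 in these data) rose by 0.83, Itgam and Lyz2 were not called, and Mpo was not tested. For the MRL/lpr B cells of the study, the methods describe a bead depletion of cells that carry CD43, CD4, CD8, CD11b, CD11c or Gr-1. The 6 summed to 10.2 to 15.6 CPM with CpG and 7.33 to 13.9 CPM without, and their part in the Il13ra1 values was not tested. Crlf2, which joins Il7r in the receptor for TSLP, fell by 0.22 (SE 0.08, limma FDR 0.0368). This call was lost without CpG replicate 1, CpG replicate 3, unstimulated replicate 2 or unstimulated replicate 3 (limma FDR 0.0638 to 0.135). It was also lost in the female samples alone (limma FDR 0.132), without a filter on low values (0.158) and without a variance trend (0.0816). Tslp and Il13, the ligands of these partner chains, were under 3 reads on average.

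Downstream of the receptors, 3 of the 6 kinase and STAT genes reported were higher with CpG and 3 were lower, beside 37.6% and 36.7% of all tested genes. Stat5a, which transmits IL-2, IL-7, IL-9 and IL-15 signals, rose from 6.49, 6.32 and 6.43 to 8.48, 8.18 and 8.24 (log2FC 1.89, SE 0.08, limma FDR 4.95e-08). Its close relative Stat5b fell by 0.17 (limma FDR 0.0187). Stat3 and Stat6, the main STAT proteins of IL-21 and IL-4, rose by 0.29 (limma FDR 0.00202) and 0.24 (limma FDR 0.00494), and Stat6 lost its call in the female samples alone (0.23, limma FDR 0.0671). The decreases of Jak1 (-0.17, limma FDR 0.0456) and Jak3 (-0.26, limma FDR 0.0134) were small. That of Jak1 was lost when any sample but CpG replicate 3 was left out (limma FDR 0.0668 to 0.164). That of Jak3 was lost without CpG replicate 3 or unstimulated replicate 2 (0.0558 and 0.0617), and that of Stat5b without CpG replicate 3, unstimulated replicate 1 or unstimulated replicate 3 (0.0516 to 0.0929).

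Of 5 inhibitors that act back on these receptors, 4 were higher, beside 37.6% of all tested genes, and the median log2FC was 1.72. Of these 4, Socs2 and Cish passed the filter through their stimulated samples. Their calls are therefore no independent support, and the count and median lean on them. Socs3 was at 7.65, 7.87 and 7.67 with CpG and at 4.72, 5.54 and 4.74 without, a log2FC of 2.73 (SE 0.19, limma FDR 5.57e-07). Socs1 rose by 1.72 (SE 0.17, limma FDR 6.89e-06). Socs2 was at 0.97, 0.96 and 1.16 with CpG and at -0.81, -1.36 and -3.47 without, where all samples were below the value of 10 reads and 1 was under 3 reads. The log2FC was 2.91 (SE 0.61), or 2.11 without unstimulated replicate 3. Cish, a target of STAT5, had a log2FC of 1.01 (SE 0.41, limma FDR 0.0477) with overlapping groups. Its call was lost when any sample but unstimulated replicate 3 was left out (limma FDR 0.055 to 0.146). The phosphatase gene Ptpn6 had a log2FC of 0.07 (limma FDR 0.564), or 0.21 without CpG replicate 1 (limma FDR 0.0498).

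Genes known as targets of these cytokines in lymphocytes were higher in 8 of 10 cases and lower in 1, beside 37.6% and 36.7% of all tested genes, with a median log2FC of 1.64. All of them also have other inputs. This list, like that of the inhibitors, was chosen with earlier results of these data known, so its count is a description. Those that rose included the survival genes Bcl2l1 (log2FC 3.91) and Bcl2 (2.55), the cyclin gene Ccnd2 (3.17), the kinase genes Pim1 (2.01) and Pim2 (1.27), and Myc (1.05). Of genes associated with IL-4, Il4i1 rose by 2.69 and Fcer2a (CD23) by 0.83. Gfi1, a transcriptional repressor, fell by 0.78 (SE 0.13, limma FDR 0.000371). Mcl1 had a log2FC of 0.07 (limma FDR 0.525).

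**Figure D4:**
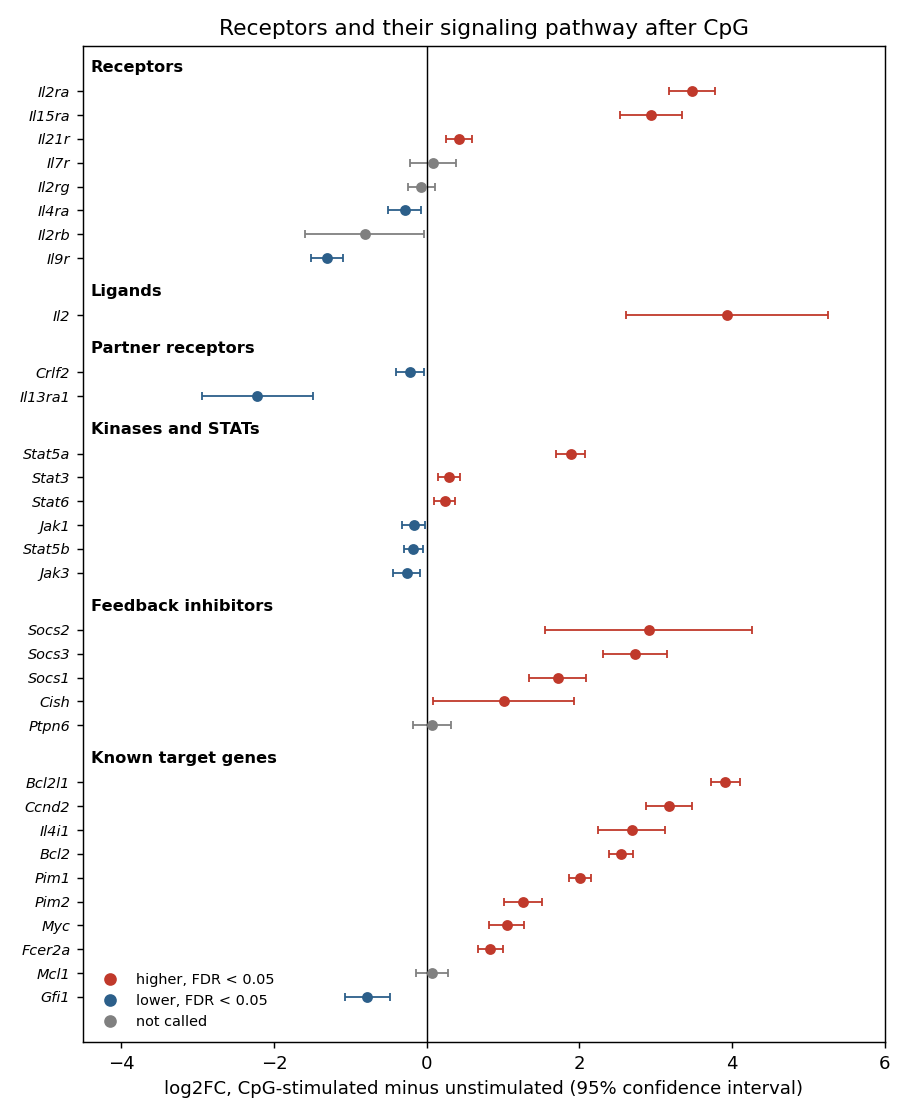
Log2FC of CpG-stimulated minus unstimulated samples (horizontal axis) with 95% confidence intervals for the receptors and the tested genes of 5 lists of their pathway. Red points were higher and blue points lower at an FDR under 0.05, and grey points were not called. The size for Il2 is uncertain, since its unstimulated samples were under the value of 3 reads. Above 1 lie 2 of 8 receptors, 4 of 5 feedback inhibitors and 7 of 10 target genes, beside 15.8% of all tested genes called there. The lists were chosen with earlier results of these data known. Socs2 and Cish passed the filter through their stimulated samples.

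Profiles most like those of the 3 strongly changed receptors were found by the root mean square difference over the 6 samples, after each gene was centred on its mean. For Il2ra these were Actn1 (difference 0.0686), Nfkbiz (0.129) and Ikbke (0.131). For Il15ra they were Hk2 (0.117), Akap1 (0.125) and Plxna1 (0.131), and for Il9r they were Vps26b (0.0496), Bach2 (0.0575) and Armc9 (0.0645). Nfkbiz and Ikbke encode components of NF-κB signaling, but Actn1 was closer to Il2ra than either. Bach2 encodes a repressor that restrains plasma cell differentiation, and Vps26b was closer to Il9r. Whether the like genes share a function with the receptors was not tested. Bach2 fell by 1.37, close to the 1.30 of Il9r. The likeness rests on 6 samples and mainly on the difference between the groups.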

How the data were processed

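RNA-seq values of 3 CpG-stimulated and 3 unstimulated B cell samples were used, grouped by their labels. The deposited values are log2 CPM, which the authors made by aligning reads to mm10 with STAR 2.6.1a, counting them per gene with featureCounts (Subread 2.0.1) after Trim Galore 0.6.5 and FastQC 0.11.7, and applying quantile normalization and voom in limma. Tools and versions are those of the submitters' processing notes, and the annotation and strand setting of counting are not given in the sources used here. Depth per sample and total RNA per cell cannot be read from such values, which sum to between 992384 and 1012396 CPM.

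The log2 values were fitted with limma 3.58.1 in R 4.3.3 (lmFit, eBayes with trend) over 11233 genes above 10 reads in at least 3 samples. Adjustment was by Benjamini-Hochberg over all of them (FDR), and genes were called at an FDR under 0.05. The median SE of a log2FC was 0.10. Tested on simulated data for this comparison over 11233 genes, the fit called 89.5% of 200 genes changed by a log2FC of 1.5, and 4 unchanged genes. The simulation had independent noise and few changed genes, whereas in these data many genes were called and samples of the same number correlated. Its results need not hold for the calls made here, least of all for small changes. The receptors, gene lists, marker lists and the rule for genes of like profile were chosen with earlier results of these data known, and lists are described by counts and medians. The genes named were taken from these lists, from the protein-coding neighbors that were measured (Gm17490 was not used here) and from the 3 genes most like each strongly changed receptor. Marker lists are given by counts and sums where no member is named. Of the kinase and STAT list, 1 gene is not reported here, and the count given for that list leaves it out. Older symbols were matched through RefSeq.

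Exon lengths and positions came from GENCODE M21, promoter sequences from RefSeq (GRCm38.p6). Deviations from the group means correlated at 0.435, 0.224 and 0.300 between samples of the same replicate number and at -0.281 to 0.0279 between others, so the numbers were taken as pairs in an alternative with a block. Il13, without reads, had -5.62, -4.74 and -5.09 in replicates 1 to 3 of both groups, so the deposited values carry a shift by number, which can also give these correlations.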

Additional observations from a re-analysis of the deposited data

How the results depend on the processing

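Il2ra, Il15ra and Il9r kept their direction and their call in all 14 alternatives, with log2FC values of 3.33 to 3.58, 2.42 to 3.06 and -1.39 to -1.24. Il21r (0.36 to 0.47) lost its call only under treat. The number of receptors called lower, 2 with all samples, was 1 without a filter on low values, 1 in the female samples alone, 1 without a variance trend and 1 under treat, 3 with 10 reads in all 6 samples and 3 on log2(CPM + 1), and ranged from 1 to 4 when single samples were left out. Replicate number as a block gave 3, by adding Il2rb (limma FDR 0.043), and changed no other receptor call; among the other named genes it added Pfkfb3. The log2FC of Il7r turned to -0.0035 in the female samples alone. That of Ankrd16 turned to -2.158e-05 on log2(CPM + 1) and to -0.0033 after centring, and without single samples ranged from -0.1155 to 0.0805. Without single samples Ptpn6 ranged from -0.0147 to 0.208 and Mcl1 from -0.004 to 0.156. Of 112 log2FC values of receptors under the alternatives, 97 kept direction and call, 8 lost and 6 gained a call and 1 turned sign. Of 444 values of the other 32 named genes, 385 kept both. Under treat against a log2FC of 1, 914 genes were higher and 968 lower. The main fit called 4227 and 4123 at any size, and 1778 and 1723 of these had a log2FC over 1 or under -1. Treat asks for more than a difference from 0, so its counts are lower by definition. The cause of the other shifts was not tested. Without a filter the fit covered 5443 genes that sat at the most frequent value, that of no reads, in every sample. This count leaves out genes without reads whose values shift by replicate number, such as Il13. Depth limits Il2rb, Il2 and the unstimulated level of Il15ra.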
